A study of Mus musculus with 12 samples.

Results

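Myeloid-derived suppressor cells (MDSCs) sorted from mouse liver tumors were compared for the way their transcripts responded to MS-275, an inhibitor of the histone deacetylases HDAC1, HDAC2 and HDAC3. The quantity described for each gene is the difference of 2 responses, namely the change under MS-275 in PMN-MDSCs minus the change under MS-275 in M-MDSCs. A value above 0 means that the gene rose more, or fell less, in PMN-MDSCs. Every gene symbol with at least 1 FPKM in at least 2 of the 8 libraries of this comparison was taken, which gave 11533 of the 24346 symbols. The choice used the level alone, and a gene could pass through the 1 group in which it was high, which then had to differ. That was so for 345 of the genes tested, of which 73 had a higher and 96 a lower response, against 911 and 988 of the other 11188. Where such a gene is described, its values stand as a description and support nothing. Counts and medians of the gene lists include such genes.

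FPKM counts the fragments of a gene relative to its transcript length and to a measure of library size, and it was analyzed as log2(FPKM + 1). M-MDSCs, the monocytic subset, were sorted as CD11b+Ly-6ChiLy-6G- cells, and PMN-MDSCs, the polymorphonuclear subset, as CD11b+Ly-6CintLy-6G+ cells. Both came from orthotopic tumors of the mouse hepatoma line Hepa 1-6 in wild-type (WT) female C57BL/6J mice aged 6 to 8 weeks, of which those with MDSCs above 20% in blood were chosen. The 4 groups were M-MDSCs and PMN-MDSCs of mice given vehicle or MS-275, with 2 libraries per group. MS-275 was injected at 5 mg/kg daily for 10 days from day 10 after inoculation, and tumors were collected on day 21. This schedule comes from the study's animal methods, whose RNA-seq text speaks of M-MDSCs alone. Whether a library holds 1 mouse or a pool is not given in the sources used here, so each p-value measures only the spread between libraries.

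The FPKM summed to 564078 to 592391 per library in M-MDSCs, to 656932 and 674361 in PMN-MDSCs of vehicle mice and to 854390 and 844279 in those of MS-275 mice. The median-of-ratios size factor, the median ratio of a library's genes to their geometric mean over the libraries, was 1.009 to 1.016. The deposited values were thus near a common median scale and not on equal sums. Total counts are unknown, but the steps between low values gave relative depths of 0.728 to 1.1, with the lowest values in the MS-275 PMN-MDSC libraries. In the vehicle libraries 2 picked genes followed their labels, and gene lists did so only in part. To check the labels, Csf3r, the receptor of the neutrophil growth factor G-CSF, had 8.75 and 10.5 FPKM in vehicle M-MDSCs and 214 and 237 in vehicle PMN-MDSCs, and Ly6c2, part of the sorted Ly-6C antigen, had 1360.2 and 1306 against 511 and 455. Ly6g was not analysed here. The 3 sorting antigen genes tested summed to 1652 and 1592 FPKM in vehicle and 2660 and 2715 in MS-275 M-MDSCs. In PMN-MDSCs the sums were 1336 and 1352 under vehicle and 2359 and 2546 under MS-275, and 2 of the 3 had a higher response. The difference of Ly6c2 ranged from 0.7618 to 0.9352 without 1 library. Whether this changed the sorted cells was not tested. Secondary and tertiary granule genes summed to 3216 and 3283 FPKM in vehicle M-MDSCs and to 10160 and 10910 in vehicle PMN-MDSCs. Monocyte genes differed less, with 3982 and 3790 against 3652 and 3681, as did primary granule genes, with 10420 and 10200 against 10830 and 10250. The vehicle PMN-MDSC libraries also held macrophage genes at or above the level of M-MDSCs, with Csf1r at 159.9 and 145 against 123 and 123 FPKM. Lymphocyte markers summed to at most 12.04 FPKM. Of 12 hepatocyte and liver tumor markers 7 were listed at 0 in the 8 libraries, Alb and Ttr among them. The list summed to 61.71 and 64.67 FPKM in vehicle and 50.22 and 47.47 in MS-275 M-MDSCs, and to 163.4 and 157.1 in vehicle and 270.1 and 273.6 in MS-275 PMN-MDSCs, and of its 4 members tested Trf had a higher and Krt18 and Afp a lower response in PMN-MDSCs. Stroma and endothelium markers summed to 17.74 and 18.25 FPKM in vehicle and 43.2 and 39.68 in MS-275 M-MDSCs, and to 33.7 and 31.9 in vehicle and 61.35 and 64.05 in MS-275 PMN-MDSCs, with a lower response for 2 of 4 tested. Platelet markers summed to 9.815 and 9.68 FPKM in vehicle and 49.5 and 46.39 in MS-275 M-MDSCs, and to 37.89 and 20.88 in vehicle and 53.38 and 63.07 in MS-275 PMN-MDSCs, with a lower response for 1 of 6 tested. The part of such cells in the results was not tested.

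Histone deacetylases remove acetyl groups from histones and other proteins, and their inhibition is known to raise some transcripts and to lower others in the same cell. M-MDSCs resemble monocytes, which carry sensors of microbial products and can become macrophages or dendritic cells. PMN-MDSCs resemble neutrophils, whose granule proteins are made in a fixed order during maturation in the bone marrow, first those of primary granules such as myeloperoxidase, then those of secondary and tertiary granules such as lactoferrin. Both subsets are known for restraining T cells in tumors.

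In PMN-MDSCs 1654 of the 11533 genes (14.3%) were upregulated under MS-275 and 1620 (14%) were downregulated. In M-MDSCs 1151 (9.98%) were upregulated and 813 (7.05%) downregulated. Upregulated and downregulated mean an adjusted p under 0.05 and a fold change above 1.5, with limma and Benjamini-Hochberg adjustment over all genes tested. The difference between these responses passed the same limits in 2068 genes (17.9%), of which 984 (8.53%) responded higher in PMN-MDSCs and 1084 (9.4%) lower. The median difference over all genes was 0.02 on the log2 scale, with a median standard error of 0.156. The deposited values were near a common median scale, so a median near 0 was largely set by that scaling.

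**Figure D1:**
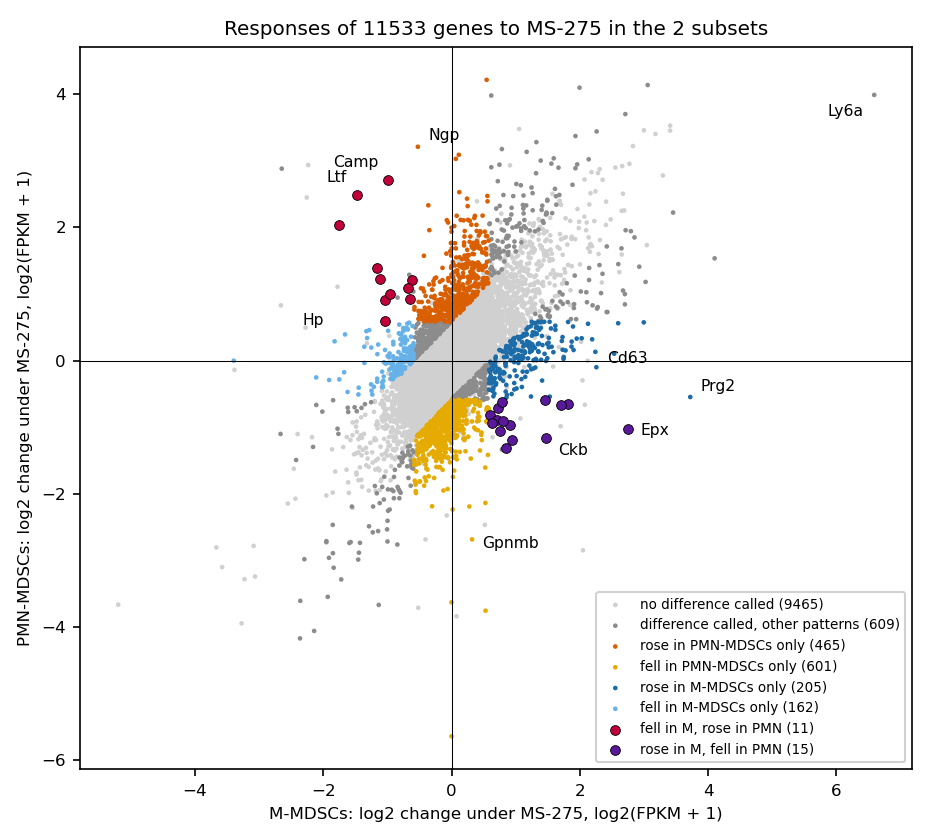
Log2 change under MS-275 in M-MDSCs (x axis) against PMN-MDSCs (y axis) on the log2(FPKM + 1) scale, with 1 point per gene. Colors give the pattern of calls, and the 11 and 15 genes with calls in opposite directions are the large points in the upper left and lower right.

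Most differences lay in 1 subset. Of the genes with a difference, 465 rose in PMN-MDSCs and did not pass the limits in M-MDSCs (4.03% of the genes tested), and 601 fell in PMN-MDSCs in the same way (5.21%). In M-MDSCs these numbers were 205 (1.78%) and 162 (1.4%). A further 119 rose in both and more in PMN-MDSCs, 52 rose in both and more in M-MDSCs, 68 fell in both and more in PMN-MDSCs, and 15 fell in both and more in M-MDSCs. Calls in opposite directions were few, with 11 genes that fell in M-MDSCs and rose in PMN-MDSCs (0.0954%) and 15 that rose in M-MDSCs and fell in PMN-MDSCs (0.13%). The remaining 355 had neither pattern.

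The balance of higher and lower depends on how the libraries are scaled. S100a8 and S100a9, which encode the subunits of calprotectin, took 1.78% to 4.28% of the FPKM in M-MDSCs, 10.2% and 13.7% in vehicle PMN-MDSCs, and 29.7% and 27.3% in MS-275 PMN-MDSCs. With these 2 genes taken out and the libraries rescaled, 716 genes were higher and 1444 lower. With all libraries scaled to equal sums, 371 were higher and 2955 lower, and the median of all genes moved to -0.32. Median-of-ratios scaling gave 995 and 1073, and quantile normalization 1062 and 1176. The size factors were 1.009 to 1.016 before any scaling, so median-of-ratios scaling could change little and is no separate check. Directions below are those of the deposited scale, and each is qualified where another scaling turns it.

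**Figure D2:**
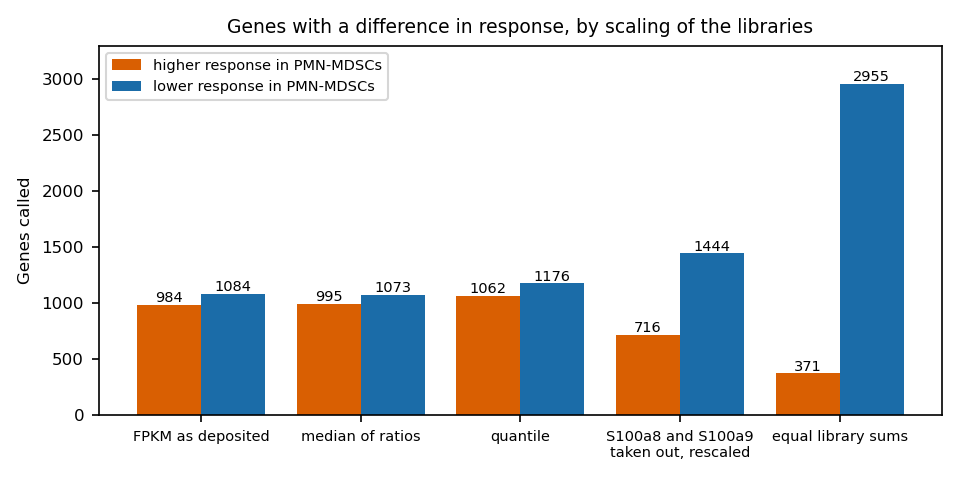
Number of genes called (y axis) with a higher or lower response in PMN-MDSCs under each scaling of the libraries (x axis). The counts are near each other for the first 3 scalings. Of these, median of ratios could change little, because the deposited values were already near that scale. Lower responses prevail with S100a8 and S100a9 taken out and with equal library sums.

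The genes that fell in M-MDSCs and rose in PMN-MDSCs were led by 2 proteins of secondary granules. Ltf encodes lactoferrin, an iron-binding protein, found on chromosome 9, plus strand, from 111019271 to 111042767 (GRCm38). It had 73.3 and 102 FPKM in the vehicle M-MDSC libraries and 29.1 and 31.8 in the MS-275 ones, against 693 and 760.0 and then 4077 and 4098 in PMN-MDSCs. In each subset the vehicle and MS-275 libraries lay apart, in opposite orders. On the log2 scale M-MDSCs changed by -1.47 ± 0.13 (standard error) and PMN-MDSCs by 2.49 ± 0.13, and the difference of 3.97 had an adjusted p of 3.77e-05 (limma). Camp, the precursor of the antimicrobial peptide cathelicidin, went from 51.8 and 82.8 to 26.9 and 39.5 FPKM in M-MDSCs and from 295 and 278 to 1821 and 1954 in PMN-MDSCs. Camp lies on the minus strand of chromosome 9 from 109847379 to 109849617. Its difference was 3.7 ± 0.31 (limma, adjusted p = 2.24e-04), and the fall in M-MDSCs lost its call without the first MS-275 M-MDSC library. Ngp, neutrophilic granule protein, behaved similarly without passing the fold limit in M-MDSCs, with 470.1 and 544 FPKM under vehicle and 331 and 372 under MS-275 there, against 1494 and 1625 under vehicle and 14556 and 14306 under MS-275 in PMN-MDSCs. Its changes were -0.52 and 3.21, with a difference of 3.74 ± 0.13 (limma, adjusted p = 8.10e-06).

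These 3 genes had the largest positive differences in the granule list, and all 3 lie on chromosome 9 within 1195 kb. Their promoters are shown because the genes moved together, from 250 bases before to 50 after the gene start (RefSeq, GRCm38.p6), with matches to TTGCNNAA, a simple form of the motif bound by C/EBP factors of granulocytes, in capitals on either strand.
Ltf, chr9:111019042-111019341, plus strand: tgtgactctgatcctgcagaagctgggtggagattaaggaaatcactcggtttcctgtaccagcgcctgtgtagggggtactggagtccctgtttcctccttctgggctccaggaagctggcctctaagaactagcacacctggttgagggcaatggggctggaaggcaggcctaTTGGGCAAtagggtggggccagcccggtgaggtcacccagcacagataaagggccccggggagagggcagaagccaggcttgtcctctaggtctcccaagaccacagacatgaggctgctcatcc
Ngp, chr9:110419558-110419857, plus strand: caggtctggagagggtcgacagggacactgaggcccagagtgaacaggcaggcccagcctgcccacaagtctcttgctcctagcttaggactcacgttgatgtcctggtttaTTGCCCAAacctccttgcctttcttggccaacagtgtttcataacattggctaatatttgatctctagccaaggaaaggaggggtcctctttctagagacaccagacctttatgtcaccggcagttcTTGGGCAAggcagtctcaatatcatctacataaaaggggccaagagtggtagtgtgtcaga
Camp, chr9:109849407-109849706, minus strand: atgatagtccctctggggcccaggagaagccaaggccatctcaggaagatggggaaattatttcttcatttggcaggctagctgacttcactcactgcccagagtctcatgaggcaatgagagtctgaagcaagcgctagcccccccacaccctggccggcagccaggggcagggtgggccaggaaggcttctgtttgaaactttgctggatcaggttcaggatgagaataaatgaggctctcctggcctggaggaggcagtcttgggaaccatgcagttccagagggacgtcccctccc
The Ltf window held 1 match, the Ngp window 2 and the Camp window 0. Over all 32851 promoters of this length 10.8% held a match. Of the 12 promoters found for granule genes that responded higher in PMN-MDSCs, 5 held one, those of Adam8, Fcnb, Lcn2, Ltf and Ngp. The share in granule genes without a higher response was not counted, so a match cannot be tied to the response. A match says nothing of binding in these cells.

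The other genes of this pattern belonged to unlike functions. Vcl encodes vinculin, which links integrins to actin. It lies on chromosome 14 from 20929398 to 21033676 (GRCm38, plus strand), where its exons overlap those of Ap3m1 on the other strand, and had 33.9 and 32.2 FPKM in vehicle and 16 and 17 in MS-275 M-MDSCs, against 23.1 and 24.4 under vehicle and 48.7 and 48.8 under MS-275 in PMN-MDSCs. The level was thus higher in vehicle M-MDSCs than in vehicle PMN-MDSCs, and lower after MS-275. Its difference was 1.96 ± 0.10 (limma, adjusted p = 3.98e-05). S100a4, a calcium-binding protein of motile cells, went from 1054 and 1123 to 501 and 562 FPKM in M-MDSCs and from 603 and 574 to 851 and 923 in PMN-MDSCs. Its rise in PMN-MDSCs was 0.59, just over the limit of 0.585, and its opposite call was lost with S100a8 and S100a9 taken out, with equal sums, and without the second vehicle or the second MS-275 PMN-MDSC library. Apoc2, an apolipoprotein that activates lipoprotein lipase, changed by -1.04 and 0.92, and Tgm1, a transglutaminase, by -0.68 and 1.09. The opposite call of Apoc2 was lost with equal sums. Hist1h4i, a histone H4 gene with near-identical copies and so an uncertain count, changed by -1.12 and 1.23, and its opposite call was lost without the first vehicle M-MDSC, MS-275 M-MDSC or vehicle PMN-MDSC library. Lmtk2, Perp, 2310010J17Rik and Scarna6 completed the 11, and were picked once their values had been seen. The first 3 differed by 1.82, 1.57 and 2.56. The opposite call of Lmtk2 was lost with S100a8 and S100a9 taken out and without the first vehicle M-MDSC library. That of Perp was lost without the second vehicle or either MS-275 M-MDSC library, and that of 2310010J17Rik without the second vehicle or the second MS-275 M-MDSC library and with a pseudocount of 0.1. Scarna6, a small RNA, was listed at 0 in the MS-275 M-MDSC and vehicle PMN-MDSC libraries, with 3.22 and 1.68 FPKM in vehicle M-MDSCs and 4.41 and 2.09 in MS-275 PMN-MDSCs.

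Among the 15 genes that rose in M-MDSCs and fell in PMN-MDSCs, Epx encodes eosinophil peroxidase and lies on chromosome 11 from 87864000 to 87875536 (GRCm38, minus strand). It had 2.68 and 1.28 FPKM in vehicle M-MDSCs and 18.4 and 18.6 in MS-275 M-MDSCs, against 7.0 and 4.27 under vehicle and 2.21 and 2.19 under MS-275 in PMN-MDSCs. The order of the subsets thus turned over, with all vehicle M-MDSC libraries below and all MS-275 M-MDSC libraries above their PMN-MDSC counterparts. The difference was -3.77 ± 0.34 (limma, adjusted p = 3.29e-04). Ccnd1 encodes cyclin D1, which drives entry into the cell cycle. Its exons overlap those of LTO1 on the other strand. It went from 15.7 and 18.6 to 33.6 and 32.8 FPKM in M-MDSCs and from 13.4 and 11.6 to 5.28 and 6.56 in PMN-MDSCs. The difference was -1.89 ± 0.17 (limma, adjusted p = 3.29e-04). Ckb, the brain-type creatine kinase, went from 6.42 and 9.49 to 23.1 and 23.9 and from 15.5 and 13.6 to 5.33 and 6.61, a difference of -2.63 ± 0.23 (limma, adjusted p = 2.88e-04).

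The opposite call of Prss34 was lost without the first vehicle or the second MS-275 M-MDSC library. Syngr1, a synaptic vesicle protein, changed by 0.94 in M-MDSCs and -1.19 in PMN-MDSCs, Fkbp11, a protein of the endoplasmic reticulum, by 0.76 and -1.06, and Prss34, a protease of mast cells and basophils, by 0.85 and -1.31. Id3, an inhibitor of basic helix-loop-helix factors, had 7.61 and 12.4 under vehicle and 32.6 and 35.8 FPKM under MS-275 in M-MDSCs, and 15.7 and 16.2 under vehicle and 7.66 and 12.2 under MS-275 in PMN-MDSCs. Gata2, a factor of progenitors, mast cells and basophils, stayed low at 0.188 and 0.327 under vehicle and 2.58 and 2.33 under MS-275 in M-MDSCs and 2.29 and 2.09 under vehicle and 0.774 and 1.51 under MS-275 in PMN-MDSCs. The opposite call of Id3 was lost in 5 of the 8 fits without 1 library and with quantile normalization, and that of Gata2 without the first vehicle or the first MS-275 PMN-MDSC library. Hmgn3, Hpgds, Procr, Rps4l, Shcbp1l, Uchl1 and Wdr34 completed the 15, with differences of -2.47, -1.44, -1.43, -1.6, -1.41, -1.71 and -1.58. These 7 were also picked once their values had been seen. The opposite call of Uchl1 held in 2 of the 8 fits without 1 library, and was lost with quantile normalization and with a pseudocount of 0.1. That of Hpgds held in 4 of the 8, that of Shcbp1l in 5 and that of Procr in 6, and all 3 were lost with quantile normalization. Hmgn3 and Rps4l kept theirs in 6 of the 8 and Wdr34 in 7. Mast cell and basophil markers summed to 6.176 and 8.672 FPKM in vehicle and 11.93 and 17.04 in MS-275 M-MDSCs, and to 41.47 and 55.66 in vehicle and 16.21 and 18.6 in MS-275 PMN-MDSCs. These sums moved in the same directions as Gata2, Prss34 and Epx. The marker list has 1 of the 15 genes among its members, so the sums are not separate from it. The part of such cells was not tested. Of all 26 genes 6 had no group mean of 5 FPKM or more.

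**Figure D3:**
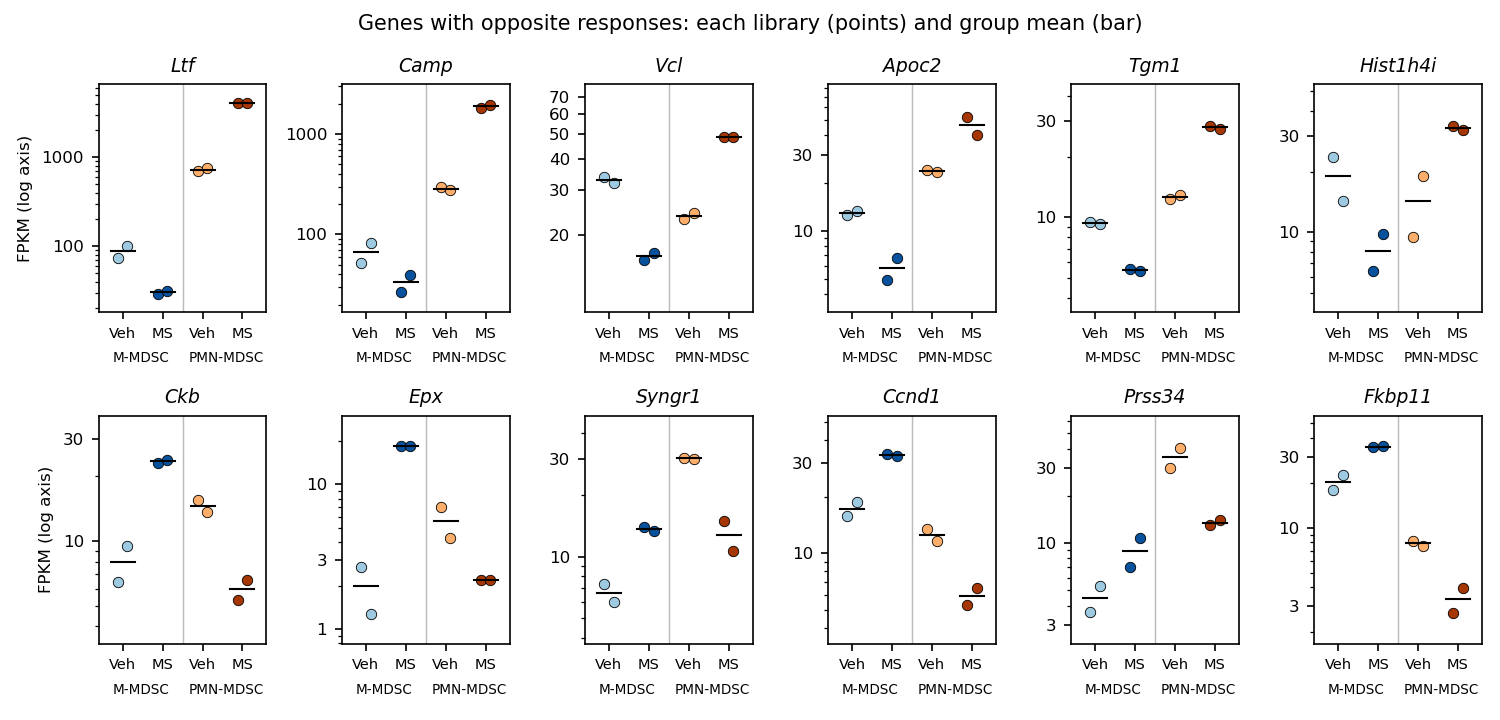
FPKM on a log axis in each library (points) with the group mean (bar) for 6 genes that fell in M-MDSCs and rose in PMN-MDSCs (upper row) and 6 that did the reverse (lower row). In every panel the vehicle and MS-275 libraries of a subset do not overlap, and their order turns between the subsets.

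As a list, the secondary and tertiary granule proteins followed Ltf and Ngp in PMN-MDSCs and not in M-MDSCs. They summed to 3216 and 3283 FPKM in vehicle and 5199 and 5466 in MS-275 M-MDSCs, with a median change of 0.18, and to 10160 and 10910 in vehicle and 41720 and 42200 in MS-275 PMN-MDSCs, with a median change of 1.58. Of 19 listed genes, all tested, 13 responded higher in PMN-MDSCs and 2 lower, and the median difference was 0.99. In PMN-MDSCs 14 rose and 1 fell, and in M-MDSCs 5 rose and 4 fell. Between 10 and 13 members were higher under each scaling. Lcn2, lipocalin 2, which binds bacterial iron carriers, rose from 2096 and 2322 to 6367 and 6801 FPKM in PMN-MDSCs, and had 412 and 446 under vehicle and 482 and 506 under MS-275 in M-MDSCs. Itgb2l, an integrin beta chain, and Olfm4, olfactomedin 4, differed by 2.13 and 1.73. Chil3, a chitinase-like protein, rose in both subsets, by 1.26 in M-MDSCs and 1.7 in PMN-MDSCs, and its difference did not pass the limits.

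Hp, which encodes the hemoglobin-binding haptoglobin, reached its difference by another route. It fell in M-MDSCs from 430.4 and 428 to 116 and 126 FPKM, and in PMN-MDSCs it had 442 and 421 under vehicle and 495 and 563.6 under MS-275. Vehicle libraries of the subsets were thus at nearly the same level, and only the M-MDSC libraries moved past the limits. The difference was 2.11 ± 0.10 (limma, adjusted p = 3.98e-05).

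Primary granule proteins rose in M-MDSCs. Of 10 genes tested, 8 rose there, while 5 rose and 1 fell in PMN-MDSCs, and the difference was called higher for 1 and lower for 2, with a median of -0.53. Without the second vehicle PMN-MDSC library 4 were lower, and with equal library sums 7 were. Mpo, myeloperoxidase, had 298 and 257 FPKM in vehicle and 1018 and 1059 in MS-275 M-MDSCs, against 55.3 and 25.9 under vehicle and 38.9 and 46.5 under MS-275 in PMN-MDSCs, where the groups overlapped. Its difference was -1.74 ± 0.39 (limma, adjusted p = 0.0126). Ctsg, the protease cathepsin G, rose in M-MDSCs by 1.36, with 0.13 in PMN-MDSCs. Serpinb1a, an inhibitor of neutrophil proteases, rose in both and more in PMN-MDSCs, by 0.75 and 2.32.

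S100 proteins rose in PMN-MDSCs. Of 10 genes tested, 7 rose there, while 3 rose and 2 fell in M-MDSCs. In the difference 5 had a higher response there and 0 a lower one (6 differences had an unadjusted p under 0.05 in limma), and the median difference was 0.81. With quantile normalization 3 were higher and 1 lower. S100a6 had 498 and 507 under vehicle and 509.8 and 572 FPKM under MS-275 in M-MDSCs, and rose from 1920.2 and 2162 to 5065 and 4848 in PMN-MDSCs. S100a5 went from 2.93 and 0 to 40.4 and 31.8 FPKM in PMN-MDSCs, with 2.48 and 2.59 under vehicle and 3.0 and 5.68 under MS-275 in M-MDSCs. With a pseudocount of 0.1 the difference of S100a5 lost its call (limma, adjusted p = 0.0585). S100a9 rose in both, by 1.16 in M-MDSCs and 1.99 in PMN-MDSCs, and the difference of 0.83 (limma, adjusted p = 0.0107) turned to -0.17 with quantile normalization. The difference of S100a8 was 0.28 and did not pass the limits.

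**Figure D4:**
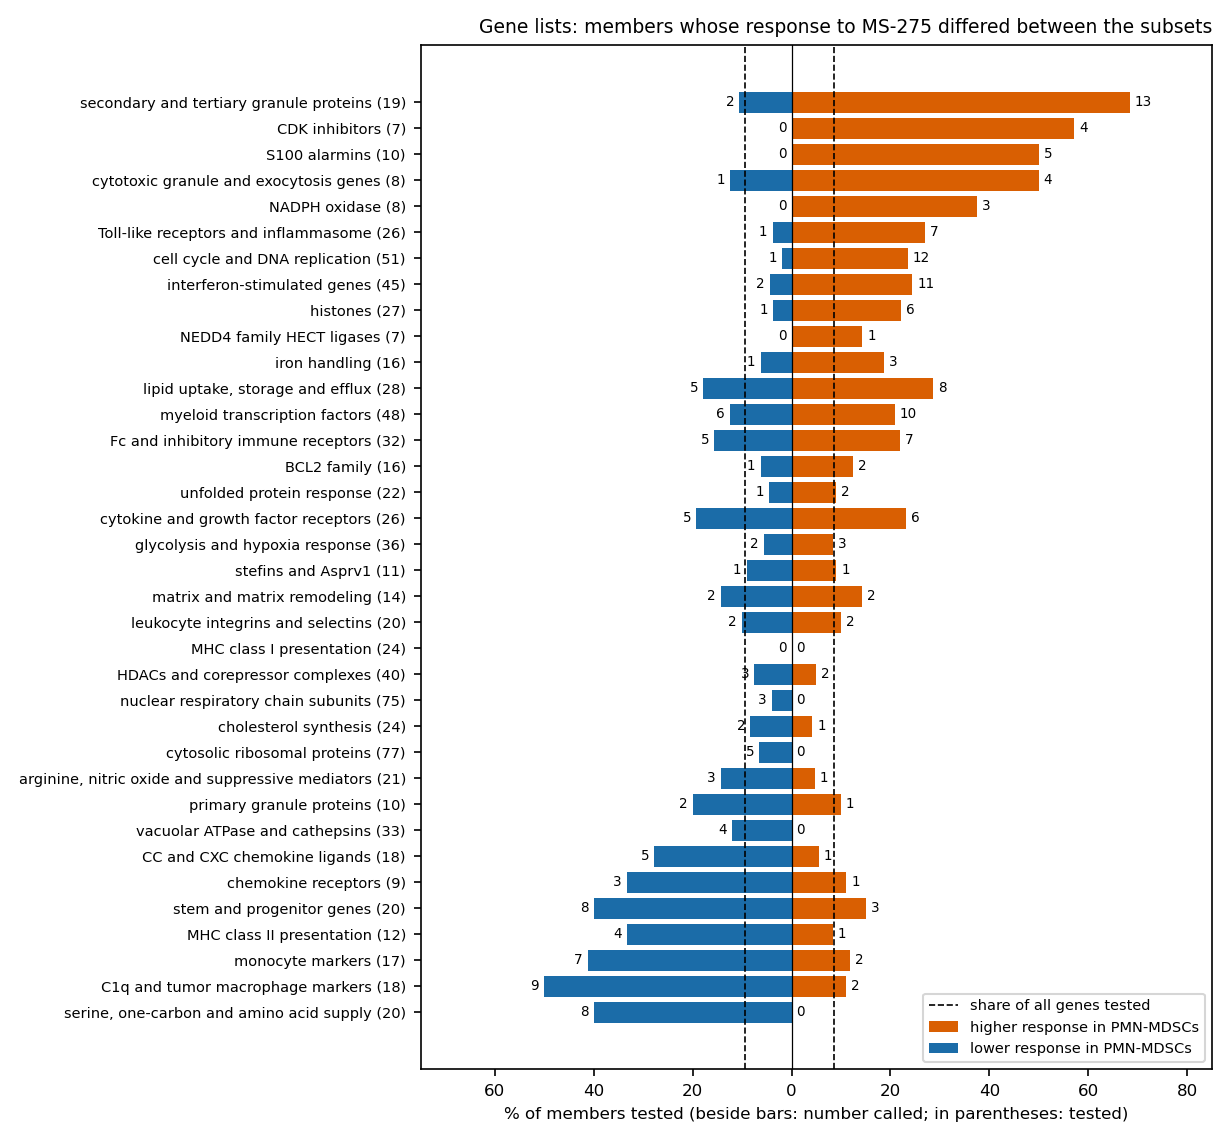
Share of the tested members of each gene list (y axis, number tested in parentheses) whose difference in response was called, to the right for a higher and to the left for a lower response in PMN-MDSCs (x axis, percent). Dashed lines mark the shares over all genes tested, 8.53% and 9.4%.

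The NADPH oxidase, which makes superoxide in phagocytes, rose in part in PMN-MDSCs, with 2 genes up there and 0 in M-MDSCs (unadjusted p under 0.05 in limma for 6). Of its 8 listed genes 3 had a higher response in PMN-MDSCs and 0 a lower one (5 had an unadjusted p under 0.05 in limma), with a median of 0.49. Cybb, the catalytic subunit gp91phox, rose from 199.7 and 209 to 492 and 481 FPKM in PMN-MDSCs, and had 231 and 216 under vehicle and 194 and 184 under MS-275 in M-MDSCs. The difference was 1.49 ± 0.0846 (limma, adjusted p = 7.02e-05). Ncf1, the p47phox subunit, had -0.33 in M-MDSCs and 0.47 in PMN-MDSCs, neither past the fold limit, and a called difference of 0.80. Cyba, which encodes the membrane partner p22phox, had -0.41 and -0.39, with no difference called. With equal library sums 1 of the 3 calls was left.

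Several genes that sense microbial products fell in M-MDSCs only. Of 26 Toll-like receptor and inflammasome genes tested, 7 had a higher response in PMN-MDSCs and 1 a lower one, and the median difference of 0.36 went to -0.02 with equal library sums. In M-MDSCs 3 rose and 6 fell, and in PMN-MDSCs 7 rose and 1 fell. Cd14, a co-receptor for lipopolysaccharide, had 23.9 and 28.2 FPKM in vehicle and 11.3 and 8.36 in MS-275 M-MDSCs, against 122 and 109 under vehicle and 144 and 171 under MS-275 in PMN-MDSCs. Its difference was 1.77 ± 0.21 (limma, adjusted p = 7.72e-04). The lipopolysaccharide receptor Tlr4 fell from 26.3 and 25.1 to 13.4 and 13.2 FPKM in M-MDSCs, and in PMN-MDSCs its groups overlapped, at 47.9 and 55.8 under vehicle and 51.2 and 43.5 under MS-275. Ly96, the partner of Tlr4, and Myd88, the adaptor that carries its signal, fell in M-MDSCs by 1.36 and 0.80 on the log2 scale, with 0.21 and 0.01 in PMN-MDSCs. The difference of Ly96 lost its call without the second vehicle M-MDSC, the first vehicle PMN-MDSC or the first MS-275 PMN-MDSC library, with limma adjusted p of 0.0801, 0.0704 and 0.0765. Cd14, Tlr4, Ly96 and Myd88, which act in 1 receptor pathway, therefore fell in M-MDSCs and did not pass both limits in PMN-MDSCs. Tlr2, which senses bacterial lipoproteins, rose in PMN-MDSCs from 142 and 136 to 203 and 217 FPKM and had 111 and 112 under vehicle and 89.7 and 86.2 under MS-275 in M-MDSCs.

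Of 45 interferon-stimulated genes, 17 rose and 1 fell in PMN-MDSCs, and 11 rose and 2 fell in M-MDSCs. The difference was called higher for 11 and lower for 2. Its median was 0.17, and turned to -0.20 with equal library sums, where 7 were higher and 6 lower. Rsad2, the antiviral enzyme viperin, had 0.942 and 2.0 FPKM in vehicle and 9.42 and 9.38 in MS-275 PMN-MDSCs, and 0.159 and 0.194 under vehicle and 0.289 and 0.395 under MS-275 in M-MDSCs. The difference was 1.92 ± 0.28 (limma, adjusted p = 0.00193). Cmpk2, a nucleotide kinase of mitochondria, lies next to Rsad2 and differed by 1.97. Irf7, a factor that drives interferon genes, rose from 12.9 and 12.9 to 32.6 and 34.6 FPKM in PMN-MDSCs and had 1.84 and 1.56 under vehicle and 1.6 and 2.16 under MS-275 in M-MDSCs. Zbp1, a sensor of nucleic acids, and Samd9l, a restriction factor, differed by 1.4 and 1.38.
The promoter of Rsad2 is shown with its match to GAAA, any 2 bases and again GAAA, a form of the interferon-stimulated response element, in capitals on either strand.
Rsad2, chr12:26456403-26456702, minus strand: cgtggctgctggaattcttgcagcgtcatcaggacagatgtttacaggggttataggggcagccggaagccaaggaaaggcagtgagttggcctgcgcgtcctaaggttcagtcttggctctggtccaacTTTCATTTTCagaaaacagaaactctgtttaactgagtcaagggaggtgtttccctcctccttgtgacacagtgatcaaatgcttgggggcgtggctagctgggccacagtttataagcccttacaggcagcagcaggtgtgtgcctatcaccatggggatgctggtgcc
Such a match stood in 3.44% of all promoters, and in 3 of the 6 found for interferon-stimulated genes that responded higher in PMN-MDSCs. The share in list members without a higher response was not counted, so a match cannot be tied to the response. Gbp5, a guanylate-binding protein, rose in M-MDSCs by 0.85, with -0.36 in PMN-MDSCs, at no more than 3.44 FPKM.

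Of 51 genes of cell division, 19 fell in M-MDSCs and 0 rose there (unadjusted p under 0.05 in limma for 34), against 7 that fell and 2 that rose in PMN-MDSCs. The difference was called higher for 12 and lower for 1, with a median of 0.27 that went to -0.07 with equal library sums. Kif23, a kinesin of the dividing spindle, fell from 37.2 and 32 to 16.9 and 17.3 FPKM in M-MDSCs, and its groups overlapped in PMN-MDSCs at 17.9 and 17 under vehicle and 19.2 and 17.2 under MS-275. Nusap1 and Cenpf, further spindle and centromere proteins, fell in M-MDSCs by 1.16 and 0.62, with -0.32 and 0.18 in PMN-MDSCs. The difference of Cenpf lost its call without the first vehicle M-MDSC, the second MS-275 M-MDSC or the second MS-275 PMN-MDSC library, with limma adjusted p of 0.065, 0.0724 and 0.0624. E2f2, a factor that drives entry into S phase, rose by 0.75 in PMN-MDSCs, with -0.48 in M-MDSCs. Gins2, part of the replicative helicase, fell by 1.27 in PMN-MDSCs, with -0.34 in M-MDSCs, and was the member with a lower response. Of 7 genes for inhibitors of cyclin-dependent kinases, 4 had a higher response in PMN-MDSCs and 0 a lower one (unadjusted p under 0.05 in limma for 5). Cdkn2d and Cdkn1b rose in PMN-MDSCs, by 0.68 and 0.83, and Cdkn2c and Cdkn3 fell in M-MDSCs, by 1.05 and 0.95. Without 1 library the difference of Cdkn2c ranged from 0.7419 to 1.317 and that of Cdkn3 from 0.5303 to 0.8311, and both calls depended on single libraries. With equal library sums Cdkn2d alone of these 4 kept its call, and 3 other members were lower. In the list 2 were higher without the first vehicle M-MDSC, the second MS-275 M-MDSC or the second vehicle PMN-MDSC library.

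**Figure D5:**
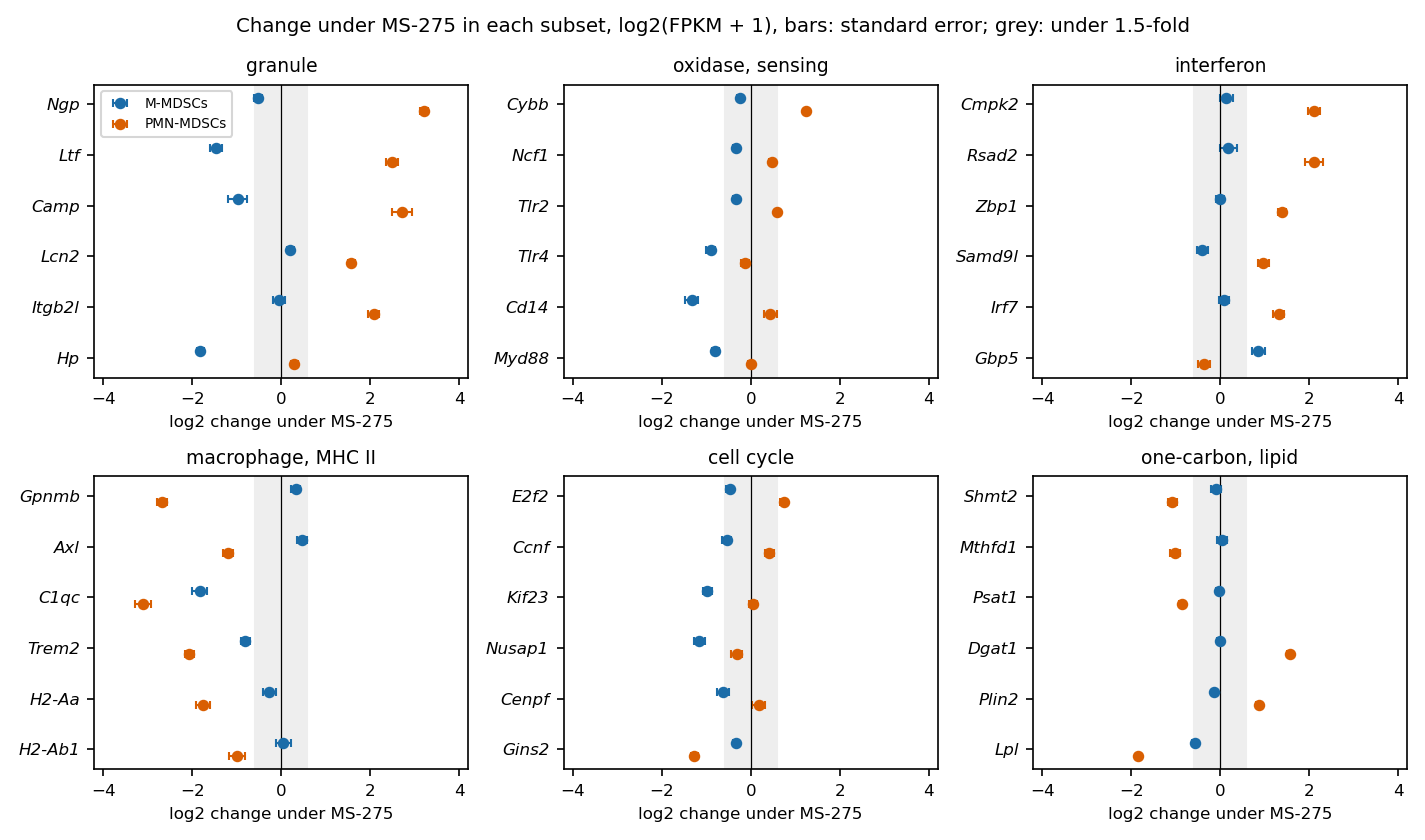
Log2 change under MS-275 (x axis, log2(FPKM + 1)) with its standard error for 6 members of each of 6 groups of functions, in M-MDSCs (blue) and PMN-MDSCs (orange). The grey band marks changes under 1.5-fold. Granule genes other than Hp, and interferon genes other than Gbp5, lie to the right in PMN-MDSCs, and Tlr4, Cd14, Myd88, Kif23 and Nusap1 lie to the left in M-MDSCs.

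Macrophage genes fell in both subsets. Of 18 tested, 13 fell and 2 rose in PMN-MDSCs, and 10 fell and 2 rose in M-MDSCs. The difference was lower for 9 and higher for 2, with a median of -0.76 that stayed below 0 under each scaling. Gpnmb, a membrane glycoprotein of tumor macrophages, had 568 and 452 FPKM in vehicle and 72.9 and 83.6 in MS-275 PMN-MDSCs, against 126 and 117 under vehicle and 152 and 152 under MS-275 in M-MDSCs. The difference was -3.0 ± 0.15 (limma, adjusted p = 4.00e-05). C1qc, a chain of complement C1q, and Trem2, a lipid receptor, fell in both, by 1.84 and 0.81 in M-MDSCs and by 3.11 and 2.06 in PMN-MDSCs. Axl, a receptor for dying cells, fell in PMN-MDSCs by 1.19, with 0.47 in M-MDSCs. The high-affinity IgG receptor Fcgr1 and Apoe, a lipid carrier, were the 2 with a higher response. Fcgr1 fell from 25.1 and 24.6 to 6.72 and 6.66 FPKM in M-MDSCs and had 24.1 and 23.1 under vehicle and 18.7 and 19.9 under MS-275 in PMN-MDSCs, a difference of 1.47. Cd63, a lysosomal tetraspanin, rose in M-MDSCs from 89.1 and 90.8 to 421 and 448 FPKM and had 678 and 653 under vehicle and 599 and 645 under MS-275 in PMN-MDSCs. The 22 listed macrophage genes summed to 2246 to 2474 FPKM in vehicle and 1262 to 1353 in MS-275 PMN-MDSCs, and to 1186 to 1245 in M-MDSCs of either treatment. In bulk libraries fewer cells of a type and less RNA per cell cannot be told apart, and the part of other cells in the PMN-MDSC gate was not tested.

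Genes of MHC class II presentation, which shows peptides to helper T cells, fell in PMN-MDSCs, and their summed FPKM fell in both subsets. The 13 listed genes summed to 1068 and 1091 FPKM in vehicle and 652.2 and 643.9 in MS-275 M-MDSCs. In PMN-MDSCs the sums were 1362 and 1161 under vehicle and 594.7 and 603.9 under MS-275. Of 12 MHC class II genes, 8 fell and 2 rose in PMN-MDSCs, 4 fell and 3 rose in M-MDSCs, and the difference was lower for 4 and higher for 1, with a median of -0.57. H2-Aa had 80.6 and 59.7 FPKM in vehicle and 18.9 and 20.7 in MS-275 PMN-MDSCs, and 24.3 and 20.3 under vehicle and 16.7 and 19.8 under MS-275 in M-MDSCs. The subsets thus ended at similar levels. H2-Ab1 and Ciita, the master activator of these genes, fell in PMN-MDSCs by 1.0 and 1.53, with 0.05 and -0.57 in M-MDSCs. Without the second vehicle PMN-MDSC library 6 members were lower, and without the first vehicle M-MDSC library 1 was, with limma adjusted p of 0.0529 for H2-Ab1 and 0.0567 for Ciita. Ciita reached 1 FPKM only in the vehicle PMN-MDSC libraries. It is counted among the 4 lower, and its call supports nothing. H2-Oa, which tempers peptide loading, rose in both, by 1.56 and 2.96. In contrast, MHC class I presentation, which faces cytotoxic T cells, had 0 of 24 genes with a difference (unadjusted p under 0.05 in limma for 5). Without the second vehicle PMN-MDSC library 4 were lower, and with equal library sums 9 were. Dendritic cell markers summed to 70.16 and 60.48 FPKM in vehicle and 11.45 and 5.907 in MS-275 M-MDSCs, and to 222.9 and 195.2 in vehicle and 33.58 and 35.64 in MS-275 PMN-MDSCs, and their part in the MHC class II result was not tested.

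Of 17 monocyte genes, 7 had a lower and 2 a higher response in PMN-MDSCs. In PMN-MDSCs 4 rose and 8 fell, and in M-MDSCs 5 rose and 3 fell. The summed FPKM of the list nevertheless rose in both subsets. It went from 3982 and 3790 to 7388 and 7598 in M-MDSCs, and from 3652 and 3681 to 9258 and 9198 in PMN-MDSCs. Irf8, which directs progenitors to the monocyte lineage, had 34.5 and 36.6 under vehicle and 37.2 and 36.7 FPKM under MS-275 in M-MDSCs, and fell from 16.5 and 11.2 to 5.99 and 6.33 in PMN-MDSCs. Ly86, an accessory protein of Toll-like receptors, fell in PMN-MDSCs by 1.95, with -0.13 in M-MDSCs. Cebpe, the factor of late granulocyte maturation, moved the other way in a list of 48 myeloid transcription factors, from 45.5 and 43.1 to 182 and 191 FPKM in PMN-MDSCs and from 22.7 and 25.8 to 33.2 and 41.1 in M-MDSCs. Its difference was 1.46 ± 0.15 (limma, adjusted p = 4.74e-04). In that list 10 had a higher and 6 a lower response. Relb, a subunit of noncanonical NF-kB, fell in both and more in M-MDSCs, by 1.62 and 0.71. Id2, a relative of Id3, rose in M-MDSCs by 0.59, with -0.44 in PMN-MDSCs.

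Metabolic genes differed in 2 lists. Of 20 genes of serine, one-carbon and amino acid supply, 8 had a lower response in PMN-MDSCs and 0 a higher one (unadjusted p under 0.05 in limma for 13), with a median of -0.47. Shmt2 and Mthfd1, enzymes that pass one-carbon units from serine to folate, fell in PMN-MDSCs by 1.07 and 1.02, with -0.09 and 0.04 in M-MDSCs. Shmt2 had 34 and 30.0 FPKM in vehicle and 13.1 and 16.3 in MS-275 PMN-MDSCs, against 102 and 116 under vehicle and 101 and 104 under MS-275 in M-MDSCs. Psat1, of serine synthesis, fell in PMN-MDSCs by 0.86, with -0.03 in M-MDSCs. Cth, which makes cysteine from cystathionine, reached 1 FPKM only in the MS-275 M-MDSC libraries, with changes of 1.75 in M-MDSCs and 0.03 in PMN-MDSCs. Cth is counted among the 8, and its call supports nothing. With equal library sums 14 of the 20 were lower, and without the first vehicle PMN-MDSC library 5 were.

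In the list of lipid uptake, storage and efflux, 8 of 28 had a higher and 5 a lower response in PMN-MDSCs, and with equal library sums 5 had a higher and 9 a lower one. Dgat1, which makes triglyceride, rose from 68.9 and 66.3 to 194 and 214 FPKM in PMN-MDSCs, with 35.1 and 35.3 under vehicle and 34.8 and 35.2 under MS-275 in M-MDSCs. Slc27a4, a fatty acid transporter, and Plin2, a coat protein of lipid droplets, rose in PMN-MDSCs by 1.09 and 0.87, with -0.48 and -0.13 in M-MDSCs. The scavenger receptor Msr1, the lipase Lpl and the fatty acid carrier Fabp4 fell in PMN-MDSCs, by 1.81, 1.83 and 3.54. In M-MDSCs these 3 had -0.50, -0.56 and -1.93. Glycolysis and hypoxia genes (3 higher and 2 lower of 36), cholesterol synthesis (1 and 2 of 24) and respiratory chain subunits (0 and 3 of 75) were near or below the background shares on the deposited scale. The 3 lower respiratory chain genes became 13 with quantile normalization, 16 with S100a8 and S100a9 taken out and 44 with equal library sums, and 2 to 9 without 1 library, with 9 without the second vehicle PMN-MDSC library. Without that library 5 cholesterol synthesis genes were lower, and with equal library sums 11 of these and 8 glycolysis genes were. Unadjusted p was under 0.05 in limma for 34 of the respiratory chain genes, and 22 of the 75 fell in PMN-MDSCs and 0 in M-MDSCs (unadjusted p under 0.05 in limma for 36 there).

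Stem and progenitor genes rose in both subsets. Of 20 tested, 15 rose in M-MDSCs and 13 in PMN-MDSCs, and the difference was lower for 8 and higher for 3, with a median of -0.41. Ly6a, the stem cell antigen Sca-1, had 1.39 and 1.58 FPKM in vehicle and 224 and 254 in MS-275 M-MDSCs, against 11.4 and 5.67 under vehicle and 140.2 and 146 under MS-275 in PMN-MDSCs. Its changes of 6.59 and 3.99 differed by -2.6 ± 0.33 (limma, adjusted p = 0.00112). Cd34, the progenitor antigen, rose by 4.1 and 1.54, and Spink2, a protease inhibitor of progenitors, by 3.46 and 2.22. With a pseudocount of 0.1 the difference of Spink2 went from -1.23 to -0.42 and lost its call (limma, adjusted p = 0.445), and the list had 4 higher and 5 lower and a median of -0.08, and the count of higher was 1 without any 1 of the 4 M-MDSC libraries.

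Eosinophil markers gave differences in both directions. Of the 10 tested, 5 had a lower response in PMN-MDSCs, namely Prg2, Prg3, Epx, Ear1 and Siglecf, and 3 a higher one, namely Ccr3, Alox15 and Cebpe, with a median of -0.96. Of these 8, 4 rose in M-MDSCs alone and 2 in PMN-MDSCs alone. Prg2, major basic protein, had 10.6 and 6.56 FPKM in vehicle and 113 and 133 in MS-275 M-MDSCs, against 34.5 and 34.7 under vehicle and 19.3 and 28.3 under MS-275 in PMN-MDSCs. The M-MDSC libraries started below the PMN-MDSC libraries and ended above them. The difference of -4.27 ± 0.30 (limma, adjusted p = 1.30e-04) was the most negative of the genes named here. Prg3, its homolog, and Siglecf, a sialic acid receptor of eosinophils, rose in M-MDSCs by 2.54 and 2.19, with 0.10 and 0.32 in PMN-MDSCs. Of the 10 eosinophil markers tested, 6 rose in M-MDSCs, and in PMN-MDSCs 3 rose and 1 fell. Their sum over 12 genes went from 184.4 and 224 to 430 and 466.5 FPKM in M-MDSCs and from 388.9 and 422.4 to 608.8 and 580.3 in PMN-MDSCs. These sums include Cebpe, a factor of granulocytes whose FPKM are given above, and it made up most of the rise in PMN-MDSCs. Il5ra, the receptor for the eosinophil growth factor, was at most 0.111 FPKM. Of 5 mast cell and basophil markers tested 3 had a lower response in PMN-MDSCs, among them Cpa3, with 9.26 and 13.4 FPKM under vehicle and 2.4 and 1.09 under MS-275 there. Their sums, given above, were higher under MS-275 in M-MDSCs and lower in PMN-MDSCs. The part of eosinophils, mast cells and basophils in the M-MDSC and PMN-MDSC results was not tested.

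Plet1, a membrane protein of epithelial progenitors, and Gstm1, a glutathione transferase, also rose in M-MDSCs alone. Plet1 had 5.67 and 7.43 under vehicle and 62.2 and 55.8 FPKM under MS-275 in M-MDSCs and 21.2 and 20.2 under vehicle and 30.1 and 32.5 under MS-275 in PMN-MDSCs. Gstm1 had 142 and 149 under vehicle and 428 and 417 under MS-275 in M-MDSCs, and 559 and 532 under vehicle and 374 and 375 under MS-275 in PMN-MDSCs, a difference of -2.07 ± 0.0774 (limma, adjusted p = 8.10e-06). Among the falls in M-MDSCs, Bst1, an enzyme that makes cyclic ADP-ribose, went from 31.3 and 30.0 to 5.86 and 6.84 FPKM, with 248 and 274 under vehicle and 224 and 214 under MS-275 in PMN-MDSCs. Tox, a chromatin protein of lymphocyte development, fell by 1.66, with 0.39 in PMN-MDSCs. Bc1, a small noncoding RNA, had 9.36 and 9.71 FPKM in vehicle M-MDSCs and was listed at 0 in the other 6 libraries. It passed the minimum only through that group, so these values are a description.

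Vil1, the actin-bundling protein villin, Sema4f, a semaphorin, and Mrgpra2b, a receptor of the Mas-related family with close paralogs, passed the minimum only through the MS-275 PMN-MDSC libraries, and their values are a description. Vil1 had at most 0.0772 FPKM in vehicle and 7.9 and 8.12 in MS-275 PMN-MDSCs, with at most 0.112 in M-MDSCs. Sema4f had 0.222 and 0.396 under vehicle and 8.65 and 10.8 under MS-275 in PMN-MDSCs, and at most 0.0888 in M-MDSCs. Mrgpra2b had a change of 2.53 in PMN-MDSCs. Among the falls in PMN-MDSCs alone, Csf1, the growth factor of macrophages, went from 91.7 and 87.9 to 17.9 and 21.6 FPKM in PMN-MDSCs and had 3.16 and 3.41 under vehicle and 5.39 and 4.98 under MS-275 in M-MDSCs. The difference was -2.66 ± 0.14 (limma, adjusted p = 5.34e-05). Its receptor Csf1r fell in PMN-MDSCs as well, by 1.28, with -0.35 in M-MDSCs. Ephx1, an epoxide hydrolase, fell by 1.6, and Rpl30, a ribosomal protein gene with many copies, had 49.8 and 20.9 under vehicle and 3.12 and 11.2 under MS-275. The call of Rpl30 was lost without any 1 of 6 libraries, with limma adjusted p from 0.072 to 0.146.

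Of 18 chemokine genes, 5 had a lower and 1 a higher response in PMN-MDSCs. Ccl2, which draws monocytes, fell from 31.1 and 33.9 to 6.85 and 6.31 FPKM in M-MDSCs and from 92.7 and 81.9 to 2.81 and 6.36 in PMN-MDSCs, a difference of -1.91 ± 0.35 (limma, adjusted p = 0.00543). Its receptor gene Ccr2 had -0.19 and -0.35, with no difference called. Cxcl2, which draws neutrophils, rose in PMN-MDSCs by 0.89, with -0.07 in M-MDSCs. Of 8 genes of cytotoxic granules and exocytosis, 4 had a higher and 1 a lower response in PMN-MDSCs. The higher responses numbered 2 with equal library sums and 2 to 5 without 1 library, with 2 without the first MS-275 M-MDSC and 5 without the second vehicle PMN-MDSC library. Sytl3, a synaptotagmin-like protein, had 0.219 and 0.196 under vehicle and 0.573 and 1.19 FPKM under MS-275 in M-MDSCs, and 0.107 and 0.11 under vehicle and 15.4 and 17.7 under MS-275 in PMN-MDSCs. Srgn, the proteoglycan serglycin, rose in M-MDSCs by 1.73, with 0.35 in PMN-MDSCs.

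The targets of the inhibitor and the ligase gene named by the study were set beside these lists. Of 40 genes for HDACs and their complexes, 2 had a higher and 3 a lower response, against 8.53% and 9.4% of all genes. Both higher responses lost their call with S100a8 and S100a9 taken out. Without 1 library 1 to 5 were higher, with 1 without the first MS-275 M-MDSC, the first vehicle PMN-MDSC or the first MS-275 PMN-MDSC library and 5 without the second vehicle PMN-MDSC library. Of Hdac1 to Hdac8 and Hdac10, 0 had a difference past both limits in limma, with an unadjusted p under 0.05 for 3 of these 9. Nedd4, a HECT-type ubiquitin ligase, rose in both subsets, from 11.9 and 9.03 to 28.3 and 33.5 FPKM in M-MDSCs and from 5.5 and 5.53 to 28.5 and 30.4 in PMN-MDSCs. It thus started lower in PMN-MDSCs and ended at a similar level. The difference of 0.74 ± 0.18 had an adjusted p of 0.0185 (limma), and the call was lost without the first vehicle M-MDSC, the first MS-275 M-MDSC or the second MS-275 PMN-MDSC library, and with equal sums.

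The lists not described so far are given by their counts of higher and lower responses in PMN-MDSCs. Histone genes had 6 higher and 1 lower of 27, Fc and inhibitory receptors 7 and 5 of 32, and cytokine and growth factor receptors 6 and 5 of 26. Vacuolar ATPase and cathepsin genes had 0 and 4 of 33 (unadjusted p under 0.05 in limma for 18), cytosolic ribosomal proteins 0 and 5 of 77 (31), and NEDD4 family ligases 1 and 0 of 7 (2). Counts were 1 and 3 of 21 for suppressive mediators, 1 and 3 of 9 for chemokine receptors, 3 and 1 of 16 for iron handling, 2 and 2 of 20 for integrins and selectins, 2 and 1 of 16 for the BCL2 family, 2 and 1 of 22 for the unfolded protein response, 2 and 2 of 14 for matrix genes, and 1 and 1 of 11 for stefins. These small counts depended on single libraries and on the scaling. Matrix genes had 4 higher without the first vehicle M-MDSC library, iron handling 3 lower without the second vehicle PMN-MDSC library, chemokine receptors 1 lower without the first vehicle or the first MS-275 M-MDSC library, and stefins 3 lower without the first and 3 higher without the second vehicle PMN-MDSC library. With equal library sums lower responses numbered 37 among the ribosomal genes, 15 among vacuolar ATPase and cathepsin genes and 10 among Fc and inhibitory receptors, and histone genes had 3 higher. Histone copies, ribosomal genes and other families with near-identical members are uncertain, since reads may be shared among them.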

How the data were processed

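Poly(A) RNA of the sorted cells was prepared with a stranded TruSeq mRNA kit and sequenced as 101-base single reads on an Illumina NovaSeq instrument. The deposited values are FPKM per gene, made by the authors for each of the 12 libraries, of which the 8 of vehicle and MS-275 were compared. The submitters' processing notes name mm10, TopHat2 2.1.1, Bowtie2 2.2.8, SAMtools 0.1.18 and Cuffdiff 2.2.1 without their roles. The strand setting of the counting is not given in the sources used here, so genes with exons on both strands cannot be told apart. In GENCODE annotation of GRCm38 this holds for 23 of the 114 genes described by value, among them Vcl, Ccnd1, Tgm1, Irf7, Mpo, Myd88, Ncf1, Nusap1, Shmt2, Ciita, Gins2, Csf1r, Plet1, Sytl3 and Vil1.

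Genes with at least 1 FPKM in at least 2 of the 8 libraries were analyzed as log2(FPKM + 1). Because of the added 1, changes of weakly expressed genes come out too small. limma 3.58.1 in R 4.3.3, with an intensity trend in its moderated spread, was fitted to the 4 groups together, and the contrasts were MS-275 minus vehicle in each subset and their difference. P-values were adjusted over all genes by the Benjamini-Hochberg method, and a call needed an adjusted p under 0.05 and a fold above 1.5. The members and gene lists were chosen with earlier results of these data known. Named genes were those with calls in opposite directions and a group mean of at least 5 FPKM, those with the largest changes in 1 subset alone, and the largest differences within each list, and exceptions are stated. The scripts were tested on simulated data. Alternatives were the pseudocount, the filter, the scaling of libraries, the limits, the model and leaving out each library. Whether library numbers pair the samples is not known, and no pairing was used in the main fit. Ly6g, Hbb-bt, Ahsp and Azu1 were not analysed here. The values of 1 gene counted in a list are not reported here. Figures were drawn with matplotlib 3.10.9.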

Additional observations from a re-analysis of the deposited data

Results flagged for a closer look

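The effects of MS-275 differed between the subsets by the test of the difference itself (limma, Benjamini-Hochberg) in 984 genes with a higher and 1084 with a lower response in PMN-MDSCs. Of these, 11 fell in M-MDSCs and rose in PMN-MDSCs. Their log2 differences were 3.97 for Ltf, 3.70 for Camp, 2.56 for 2310010J17Rik, 2.35 for Hist1h4i, 1.96 for Apoc2, 1.96 for Vcl, 1.82 for Lmtk2, 1.77 for Tgm1, 1.62 for S100a4 and 1.57 for Perp. Scarna6 had a fitted value of 3.78, which depends on the pseudocount because 2 of its groups were listed at 0.

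The other 15 rose in M-MDSCs and fell in PMN-MDSCs. Their log2 differences were -3.77 for Epx, -2.63 for Ckb, -2.47 for Hmgn3, -2.37 for Id3, -2.15 for Prss34, -2.13 for Syngr1, -2.06 for Gata2, -1.89 for Ccnd1, -1.82 for Fkbp11, -1.71 for Uchl1, -1.60 for Rps4l, -1.58 for Wdr34, -1.44 for Hpgds, -1.43 for Procr and -1.41 for Shcbp1l. With 2 libraries per group no library was tested for standing apart within its group.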

How the results depend on the processing

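The direction and the call of the difference were kept under the other settings for most genes described. The counts depended most on the scaling and the limits. With all libraries scaled to equal sums, chosen after seeing the data, 371 genes were higher and 2955 lower, 911 rose and 3454 fell in PMN-MDSCs, 1999 responded in PMN-MDSCs alone, 45 rose in M-MDSCs and fell in PMN-MDSCs, and list members were called 366 times instead of 233. Without a fold limit 1641 genes were higher, 2005 rose and 2681 fell in M-MDSCs, 2963 rose and 3427 fell in PMN-MDSCs, 194 and 94 had opposite calls, 631 responded in M-MDSCs alone and list members were called 372 times. With a fold limit of 2 the counts were 334 higher and 359 lower, 525 and 193 in M-MDSCs, 733 and 548 in PMN-MDSCs, 4 and 2 opposite, 368 in PMN-MDSCs alone, 112 in M-MDSCs alone and 118 for list members. A pseudocount of 0.1 gave 20 and 25 opposite genes, quantile normalization 24 that fell in M-MDSCs and rose in PMN-MDSCs, and S100a8 and S100a9 taken out 29 that did the reverse. A minimum of 5 FPKM left 696 genes that rose in M-MDSCs, out of fewer genes tested. Without 1 library each, higher responses numbered 823 to 1036 and lower ones 836 to 1111, and the opposite patterns held 11 to 16 and 10 to 20 genes. The fold limits cut the same fit at another value, so those counts move by construction. Apart from these, the minimum of 5 FPKM and equal sums, where the construction changes what is tested, the cause was not tested.

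With quantile normalization the differences of Chil3 (-0.79), S100a8 (-1.38), S100a9 (-0.17) and Cyba (-0.20) turned below 0. Cyba was also below 0 with S100a8 and S100a9 taken out (-0.10), with equal sums (-0.37) and ranged from -0.08193 to 0.1203 without 1 library, and S100a8 with equal sums (-0.11). Whether replicate numbers mark pairs is not known. Same-numbered libraries deviated from their group means with r of -0.13 to 0.19. Between the subsets r was -0.107 for vehicle and -0.0135 for MS-275. With 2 libraries per group such values cannot decide the question. A replicate block on treatment-by-number pairs gave 933 higher and 1003 lower, a block on the number 966 and 1041, and vehicle pairs crossed after seeing the data 957 and 1038. The relative depth of 0.728 to 1.1 is known only as a ratio, so low FPKM carry no counting interval.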

Other observations

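The series also holds libraries of mice given CXD101, another HDAC inhibitor, with 2 per subset, compared with the same vehicle libraries as MS-275. Their values are set beside those of MS-275 without a test, because the vehicle libraries are shared. Mean Ltf was 87.1 FPKM in CXD101 M-MDSCs, against 87.4 under vehicle and 30.4 under MS-275. In PMN-MDSCs it was 4963 under CXD101, against 726 and 4087. Mean Camp was 83.8 FPKM in CXD101 M-MDSCs (67.3 under vehicle, 33.2 under MS-275) and 2340.0 in CXD101 PMN-MDSCs (287 and 1888). In M-MDSCs both genes had their lowest mean under MS-275, and under CXD101 Ltf was near and Camp above the vehicle mean, while in PMN-MDSCs both were above it under either agent. Epx, by contrast, had 13.5 FPKM in CXD101 M-MDSCs (1.98 under vehicle, 18.5 under MS-275) and 2.38 in CXD101 PMN-MDSCs (5.64 and 2.2). Ccnd1 had 27.5 FPKM in M-MDSCs and 7.95 in PMN-MDSCs under CXD101, against 17.2 and 12.5 under vehicle. Some other opposite genes did not follow MS-275. In PMN-MDSCs mean S100a4 was 473 under CXD101 (589 under vehicle, 887 under MS-275) and Prss34 37.6 (35.2 and 13.5). In M-MDSCs Apoc2 was 18.1 under CXD101 (12.9 and 5.82). How many of the 26 genes share the pattern under CXD101 was not counted.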
